A study of Mus musculus with 71 samples.

Results

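The transcripts of 6 metabotropic glutamate receptors, Grm2, Grm3, Grm4, Grm5, Grm7 and Grm8, were followed in the nucleus accumbens (NAc), ventral tegmental area (VTA) and prefrontal cortex (PFC) of mice in abstinence from cocaine self-administration. The genes were taken by their symbols from the tables of gene expression, and they are 6 of the 37681 genes listed there. All 6 had reads in every library and passed the filter on low values in every comparison.

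Libraries for RNA-seq were made from micro-punches of the 3 regions of adult wild-type C57BL/6 mice, male and female, that had first been trained with food and had then self-administered either saline or cocaine through a jugular catheter. Tissue was collected after 1 or 28 days of abstinence. The 3 regions, both treatments and both time points gave 12 groups with 71 libraries in all, 6 in every group except saline VTA at 28 days, which had 5. Saline mice of the same region and day were the controls in every comparison with cocaine, and no group carried a transgene. Nothing in the labels says which libraries came from the same mouse, or that each came from a separate mouse, so p-values measure the spread between these libraries.

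Metabotropic glutamate receptors are G protein-coupled receptors that sense glutamate released at synapses, and they fall into 3 groups. Grm5 encodes mGlu5 of group I, a mostly postsynaptic receptor that couples to Gq, phospholipase C and calcium release and is tethered by Homer and Shank scaffolds. Grm2 and Grm3 encode the group II receptors mGlu2 and mGlu3, and Grm4, Grm7 and Grm8 encode the group III receptors mGlu4, mGlu7 and mGlu8, all of which couple to Gi/o and lower adenylyl cyclase activity. The group II and III receptors act mainly as presynaptic brakes on transmitter release, while mGlu3 is also made by astrocytes. In the NAc these receptors are known for setting the strength of cortical glutamate input onto medium spiny neurons, and they have long been studied in cocaine seeking.

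All 6 are protein-coding genes, and their coordinates are those of the mm9 annotation. Grm5 (ENSMUSG00000049583, chr7:94750952-95283417, plus strand) spans 532.5 kb. Grm2 (ENSMUSG00000023192, chr9:106546868-106558440, minus strand) is compact at 11.57 kb, while its group II partner Grm3 (ENSMUSG00000003974, chr5:9485236-9725352, minus strand) spans 240.1 kb. In group III, Grm4 (ENSMUSG00000063239, chr17:27559332-27650286, minus strand) spans 90.95 kb, Grm7 (ENSMUSG00000056755, chr6:110595575-111517224, plus strand) 921.6 kb and Grm8 (ENSMUSG00000024211, chr6:27225121-28085178, minus strand) 860.1 kb. The exons of Grm7 overlap those of an annotated gene on the opposite strand, and those of Grm8 overlap Mir592 on the same strand. The strand used in counting is not given in the sources used here, so reads of Grm7 and its antisense partner cannot be told apart.

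The stretch just upstream of the start site is shown for the 4 members with a RefSeq promoter entry, because Grm2 and Grm8 shared 1 order of levels over the regions and Grm3 and Grm7 another. Each is 250 bases, read 5' to 3' on the strand of the gene from RefSeq sequence on the build GRCm38.p6, whose coordinates differ from those of mm9, and where a gene had several start sites the first in the table is shown. Capitals mark every match to the GC box GGGCGG, searched on both strands. The windows lie at chr9:106656110-106656359 (minus strand) for Grm2, chr5:9725353-9725602 (minus strand) for Grm3, chr6:110645262-110645511 (plus strand) for Grm7 and chr6:28135147-28135396 (minus strand) for Grm8.
Grm2: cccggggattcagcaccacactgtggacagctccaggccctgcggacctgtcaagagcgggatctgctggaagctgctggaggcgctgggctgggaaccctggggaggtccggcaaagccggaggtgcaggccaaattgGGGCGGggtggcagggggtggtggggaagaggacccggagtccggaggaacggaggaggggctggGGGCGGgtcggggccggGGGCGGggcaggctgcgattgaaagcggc
Grm3: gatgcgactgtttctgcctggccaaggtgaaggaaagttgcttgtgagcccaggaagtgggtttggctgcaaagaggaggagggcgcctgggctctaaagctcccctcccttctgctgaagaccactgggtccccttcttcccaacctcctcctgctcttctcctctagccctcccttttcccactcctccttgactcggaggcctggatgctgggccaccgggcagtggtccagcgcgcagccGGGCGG
Grm7: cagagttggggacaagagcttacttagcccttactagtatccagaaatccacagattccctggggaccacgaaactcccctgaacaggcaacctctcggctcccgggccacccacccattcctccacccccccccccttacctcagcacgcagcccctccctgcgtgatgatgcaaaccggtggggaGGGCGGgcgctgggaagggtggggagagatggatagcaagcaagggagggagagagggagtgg
Grm8: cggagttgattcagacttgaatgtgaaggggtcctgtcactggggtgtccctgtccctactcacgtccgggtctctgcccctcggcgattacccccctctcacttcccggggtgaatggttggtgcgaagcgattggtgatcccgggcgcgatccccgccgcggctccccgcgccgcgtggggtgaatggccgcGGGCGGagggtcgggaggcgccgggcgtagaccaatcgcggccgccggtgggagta

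The Grm2 window was the richest of the 4 in G and C, at 71.2%, and held 3 GC boxes and 16 CpG dinucleotides. The Grm8 window had 68.4% G and C, 1 GC box and 29 CpGs, against 62.4% and 8 CpGs for Grm3 and 62.0% and 8 for Grm7, each with 1 GC box. Windows of other start sites, not shown, had other values. For Grm8, start site 2 had 54.4% G and C and 8 CpGs, start site 3 had 43.6% and 2 CpGs, and neither held a GC box. Start site 2 of Grm7 had 65.2%, 9 CpGs and 1 GC box. The median over all 32851 windows of this length was 52.4% G and C and 6 CpGs, and 32.7% of them held a GC box. The NBRE, the site of the Nr4a nuclear receptors (AAAGGTCA), and the cAMP response element CRE (TGACGTCA) were searched on both strands too. Neither was found in any of the 7 windows of these 4 genes, against 1.34% of all windows with the NBRE and 1.55% with the CRE. These are matches of letters in short windows and say nothing of binding.

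The libraries held 20971967 to 49700932 reads on genes. Levels are given as RPKM, reads per length of gene and per reads of the library, so that they can be compared between genes, and fold changes are on the log2 scale with their standard errors (SE). A gene was called where its p-value, adjusted by Benjamini-Hochberg over all genes tested, was under 0.05. Levels from different tables were normalized separately. Marker genes of each region stood out as labelled, with summed levels of 1553 to 3599 RPKM for medium spiny neuron genes in the NAc, 421 to 2020 for midbrain dopamine neuron genes in the VTA and 508 to 809 for cortical excitatory neuron genes in the PFC. In 1 library, saline PFC 4 at 28 days, the medium spiny neuron genes summed to 1291 RPKM, against 87.1 to 120 in the other saline PFC libraries at 28 days, and the cortical genes were the lowest, at 508 against 739 to 809. Results of the 6 receptors that rest on it are given with and without it. Those of the pathway genes, read further below, are given with it only. Cortical excitatory neuron genes also varied widely over the NAc libraries. At 1 day they summed there to 4.77 to 229 RPKM in saline and 6.05 to 319 in cocaine libraries. At 28 days the sums were 23.0 to 191 RPKM in saline and 4.81 to 222 in cocaine libraries. The part of these genes in the NAc receptor levels was not tested.

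The first question was how the receptors are laid out over the 3 regions without cocaine, in saline mice at 28 days, where all tables hold counts. The NAc had the highest levels of Grm5, Grm4 and Grm7, the PFC had the highest levels of Grm2 and Grm8, and the VTA was lowest for Grm5, Grm3 and Grm7. In edgeR, 5 of the 6 members differed between NAc and PFC, against 40.7% of all 17181 genes tested. All 6 differed between NAc and VTA, against 62.5% of all genes, and 5 of 6 between VTA and PFC, against 57.8%. The median log2 fold change of the members was 1.22 for NAc over VTA and -1.04 for VTA over PFC, beside medians over all genes of -0.027 and 0.022. In bulk tissue, fewer cells of a type and less RNA per cell cannot be told apart.

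Grm5 was the most abundant member in the NAc. Its 6 saline NAc libraries ran from 35.3 RPKM through a median of 44.2 to 51.1 (mean 44.4 ± 6.08, SD, n = 6). The 6 PFC libraries ran from 19.2 through 21.7 to 26.4 RPKM (22.1 ± 2.82), and the 5 VTA libraries held 6.84, 9.38, 10.73, 9.72 and 8.35 RPKM (9.01 ± 1.48). No library of one region reached the range of another. Grm5 was 2.01 times higher in the NAc than in the PFC (log2 fold change 0.97, SE 0.122, adjusted p = 6.28e-06, edgeR) and 4.93 times higher than in the VTA (2.41, SE 0.137, adjusted p = 9.62e-11, edgeR). Exact two-sided permutation tests gave p = 0.00216 for both.

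Grm2, the presynaptic group II autoreceptor gene, was laid out the other way round. Its PFC libraries ran from 14.8 through 21.4 to 23.7 RPKM (20.5 ± 3.53, SD, n = 6), and its NAc libraries from 0.888 through 1.27 to 3.32 RPKM (1.68 ± 0.952, n = 6). The NAc level rested on 89 to 354 reads per library. The PFC mean was 12.2 times that of the NAc (log2 fold change of NAc over PFC -3.67, SE 0.371, adjusted p = 6.62e-07, edgeR). In the VTA the 5 libraries split, with 11.9 and 13.7 RPKM in libraries 1 and 4 and 3.86, 4.04 and 4.56 in libraries 2, 3 and 5 (7.61 ± 4.77, n = 5). All 5 lay above the NAc and below the PFC (exact permutation tests, p = 0.00433 and 0.00216).

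Grm3, the group II receptor gene also made by astrocytes, was more even. Its NAc libraries ran from 22.5 through 28.6 to 32.0 RPKM (27.6 ± 3.88, SD, n = 6) and its PFC libraries from 19.5 through 22.5 to 25.03 (22.4 ± 1.87, n = 6). These ranges overlapped, and Grm3 was the 1 member not called between NAc and PFC (log2 fold change 0.27, SE 0.141, adjusted p = 0.145, edgeR). The VTA libraries held 8.17, 12.5, 13.6, 10.2 and 16.1 RPKM (12.1 ± 3.08, n = 5). They lay below all NAc and PFC libraries, with a log2 fold change of 1.30 for NAc over VTA (SE 0.153, adjusted p = 9.10e-07, edgeR) and -1.03 for VTA over PFC (SE 0.152, adjusted p = 1.43e-05, edgeR).

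Of group III, Grm4 was the gene of the NAc, Grm7 was spread over all regions and Grm8 was highest in the PFC. Grm4 ran from 19.6 through 21.4 to 24.7 RPKM in the NAc (21.98 ± 2.16, SD, n = 6) and from 4.37 through 4.87 to 14.2 in the PFC (6.40 ± 3.83, n = 6), and it held 8.39, 4.89, 5.52, 11.8 and 4.56 RPKM in the VTA (7.03 ± 3.06, n = 5). All NAc libraries were above all others. The highest PFC value, 14.2 RPKM, was that of saline PFC library 4, which also held the medium spiny neuron genes. The log2 fold change of NAc over PFC was 1.74 (SE 0.283, adjusted p = 8.32e-05, edgeR), and without that library it was 2.16 (SE 0.195, adjusted p = 1.19e-07). VTA and PFC did not differ beyond their spread for Grm4, at a log2 fold change of -0.023 (SE 0.291, adjusted p = 0.951, edgeR) with library 4 and 0.38 (SE 0.194, adjusted p = 0.107) without it.

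Grm7, the mGlu7 receptor gene of the presynaptic active zone, had the most even means, with 2.05 times more in the NAc than in the VTA. It ran from 12.5 through 16.6 to 18.9 RPKM in the NAc (16.3 ± 2.22, SD, n = 6) and from 10.9 through 12.6 to 12.8 in the PFC (12.3 ± 0.733, n = 6), and it held 8.11, 7.36, 7.64, 9.87 and 6.81 in the VTA (7.96 ± 1.17, n = 5). The NAc and PFC ranges overlapped at their ends and all VTA libraries lay below both. NAc over PFC gave a log2 fold change of 0.37 (SE 0.0997, adjusted p = 0.00666, edgeR) and NAc over VTA 1.15 (SE 0.107, adjusted p = 5.29e-08). Grm8 was the least abundant member in the NAc, at 0.666 to 1.22 RPKM around a median of 0.922 (0.961 ± 0.214, n = 6). It ran from 3.64 through 5.95 to 6.95 RPKM in the PFC (5.74 ± 1.104, n = 6) and held 2.58, 2.49, 2.73, 4.64 and 2.80 in the VTA (3.05 ± 0.898, n = 5). Here the NAc was lowest, with a log2 fold change over PFC of -2.62 (SE 0.182, adjusted p = 1.89e-08, edgeR) and over VTA of -1.56 (SE 0.184, adjusted p = 8.81e-07). Grm8 in VTA and PFC differed too, although VTA library 4 reached above PFC library 4 (log2 fold change -1.06, SE 0.181, adjusted p = 6.85e-05, edgeR).

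Ordered by their means per length, the members in the NAc at 28 days thus ran Grm5, Grm3, Grm4, Grm7, Grm2 and Grm8. In the PFC the order was Grm3, Grm5, Grm2, Grm7, Grm4 and Grm8, where the first 3 did not differ beyond their spread. Without saline PFC library 4 it became Grm3, Grm2, Grm5, Grm7, Grm8 and Grm4, with means of 6.16 ± 0.451 RPKM for Grm8 and 4.85 ± 0.332 for Grm4 (SD, n = 5). In the VTA it was Grm3, Grm5, Grm7, Grm2, Grm4 and Grm8. The VTA neighbours from Grm5 down to Grm4 lay within 1 SD of each other. Between genes these are descriptions, with no test.

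At 1 day of abstinence the saline means of all 6 members took the same order over the regions, across tables normalized separately. In limma, all 6 members differed between saline VTA and PFC, against 67.3% of the 14858 genes tested, and 5 were lower in the VTA, with log2 fold changes of -2.62 for Grm2, -1.58 for Grm8, -1.16 for Grm5, -0.86 for Grm3 and -0.83 for Grm7. The median of all genes in this comparison was 0.12 and 6128 of the 9999 genes called were higher in the VTA. With edgeR on the reads recovered from RPKM, 5264 of 10577 were. Grm4 was 1.33 times higher in the VTA (log2 fold change 0.36, SE 0.146, adjusted p = 0.0396, limma), and this call was lost with edgeR on recovered reads (adjusted p = 0.104), without the filter on low values, and without any 1 of saline VTA libraries 1, 2 and 4 or saline PFC libraries 3 to 6.

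Saline levels at 1 and 28 days lay apart, with no overlap between libraries, in 9 of the 18 pairs of a member and a region. In 5 of them, Grm4 in all 3 regions and Grm2 in the VTA and PFC, the level at 28 days was the higher. Saline Grm4 averaged 8.65 ± 2.25 RPKM at 1 day against 21.98 ± 2.16 at 28 days in the NAc, 2.88 ± 0.805 against 7.03 ± 3.06 in the VTA and 2.17 ± 0.277 against 6.40 ± 3.83 in the PFC (SD, n = 6, or 5 in the VTA at 28 days). Saline Grm2 averaged 9.56 ± 1.11 against 20.5 ± 3.53 RPKM in the PFC and 1.52 ± 0.462 against 7.61 ± 4.77 in the VTA, while in the NAc its ranges of 0.483 to 1.53 and 0.888 to 3.32 overlapped. In the other 4 the level at 1 day was the higher, as for Grm7 in the NAc (20.3 to 25.7 against 12.5 to 18.9 RPKM) and PFC (15.5 to 17.2 against 10.9 to 12.8), Grm3 in the PFC (26.3 to 31.3 against 19.5 to 25.03) and Grm8 in the NAc (1.34 to 2.396 against 0.666 to 1.22). For Grm5, Grm3 and Grm7 the 1-day means were the higher ones in all 3 regions, such as 54.1 ± 6.62 against 44.4 ± 6.08 RPKM for Grm5 in the NAc. Each time point was a table of its own, so the day of abstinence and the making of the table cannot be told apart and no test was made. The share of all genes that lay apart in this way was not counted. The 9 of 18 pairs can therefore not be read as particular to these receptors.

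**Figure D1:**
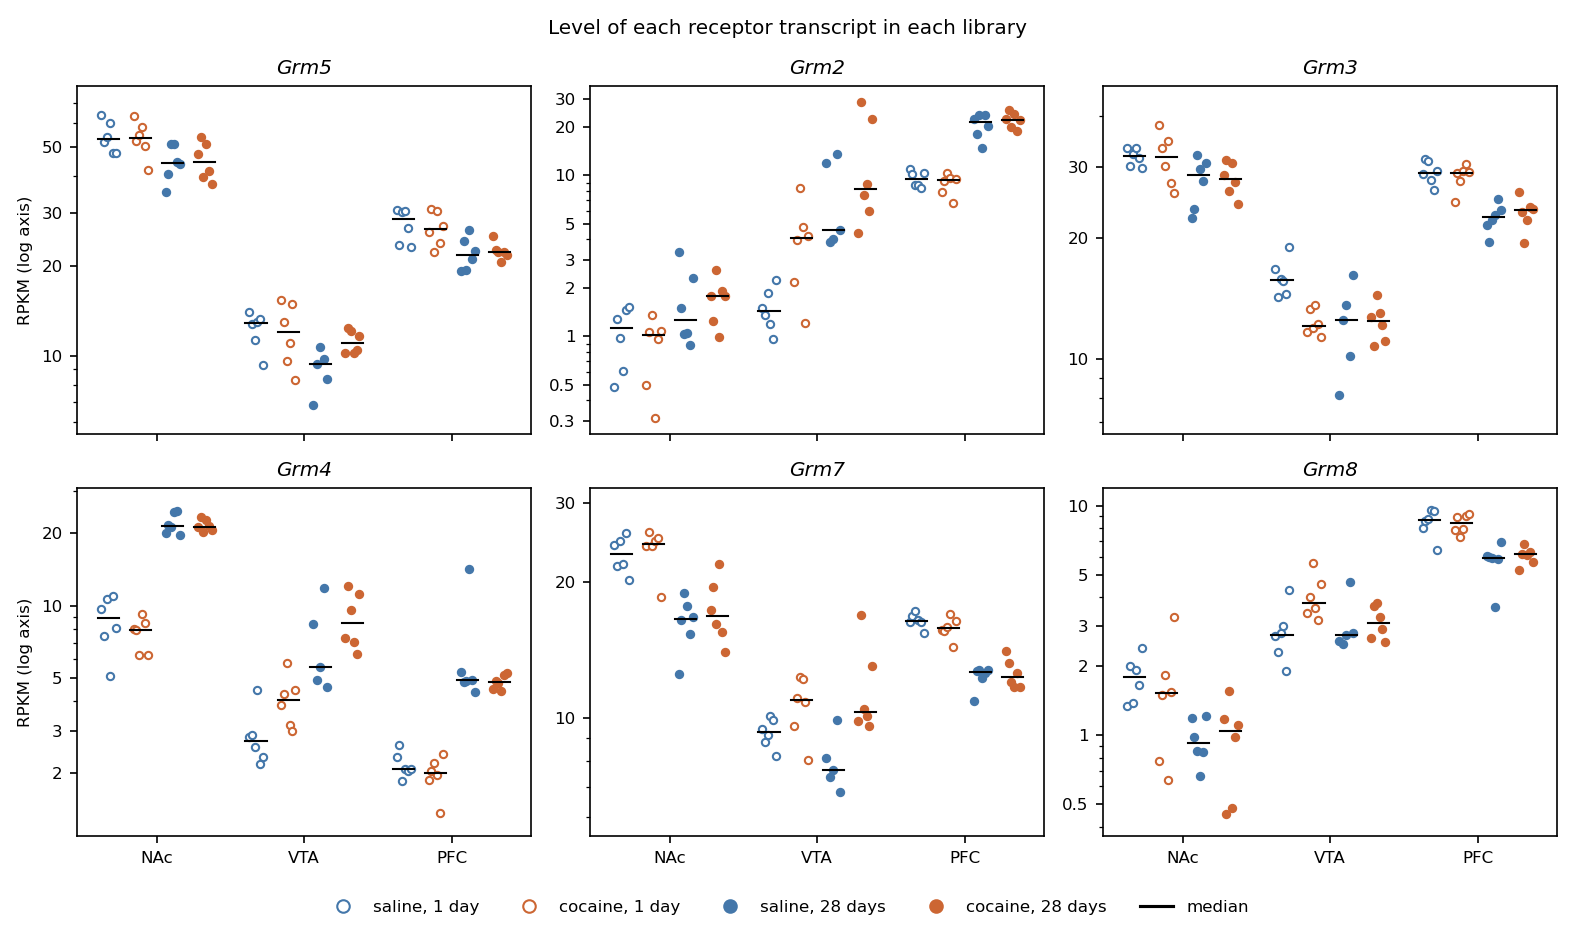
Level of each of the 6 receptor transcripts in every library, in RPKM on a log axis, by region (NAc, VTA, PFC), with open points for 1 day and filled points for 28 days and with saline and cocaine in different colours and a black bar at each group's median. At 28 days in saline mice, Grm5 and Grm4 are highest in the NAc (means of 44.4 and 21.98 RPKM) and Grm2 and Grm8 in the PFC (20.5 and 5.74 RPKM), and saline PFC library 4 stands apart for Grm4 at 14.2 RPKM.

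Cocaine was then compared with saline within each region and time point. None of the 6 members was called in any of the 6 comparisons by the test used for its table (edgeR on deposited counts, limma on RPKM) or by DESeq2 in the count tables. With edgeR on reads recovered from RPKM, Grm3 in the VTA at 1 day was called. The values that came nearest were all in the VTA. There, at 1 day, Grm3 was lower and Grm2, Grm4 and Grm8 were higher in cocaine than in saline libraries at an unadjusted p under 0.05, and at 28 days Grm7 and Grm5 were higher. In the NAc and PFC no member had an unadjusted p under 0.05 at either time point. The study's own lists of VTA genes were drawn from these libraries and include members, so a direction shared with those lists is no independent support.

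At 1 day in the VTA, 0 of 6 members were called by limma at an adjusted p under 0.05, against 0.0665% of the 15042 genes tested. With edgeR on reads recovered from RPKM, 1 was called, Grm3. At a looser adjusted p under 0.25, 4 of 6 passed, 3 higher and 1 lower, against 8.7% of all genes. At an unadjusted p under 0.05 the same 4 passed, against 15.7% of all genes. The median log2 fold change of the members was 0.34 and that of all genes 0.030. Over all genes the split depended on the method, with 9 of the 10 genes called by limma higher after cocaine and 28 of the 55 called by edgeR on recovered reads.

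Grm3 gave the cleanest separation in this table. The 6 saline libraries ran from 14.2 through 15.8 to 18.9 RPKM (16.0 ± 1.72, SD, n = 6) and the 6 cocaine libraries from 11.3 through 12.1 to 13.6 (12.4 ± 0.914, n = 6). Every cocaine library lay below every saline library, as was the case in one direction or the other for 1.67% of all genes tested. The cocaine mean was 0.773 times the saline mean (log2 fold change -0.36, SE 0.0744, unadjusted p = 0.000282, adjusted p = 0.0766, limma). The exact two-sided permutation test gave p = 0.00216, the smallest that 6 against 6 allow. With edgeR on recovered reads the log2 fold change was -0.42 and the adjusted p 0.0457, and with 1 library left out in turn limma's log2 fold change stayed between -0.40 and -0.31.

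Its group II partner Grm2 went the other way, with far more spread. Saline libraries ran from 0.960 through 1.43 to 2.23 RPKM (1.52 ± 0.462, SD, n = 6) and cocaine libraries from 1.21 through 4.11 to 8.38 (4.12 ± 2.49, n = 6). Cocaine libraries 2, 3, 4 and 6 were above all saline libraries, and libraries 1 and 5 lay within their range. The cocaine mean was 2.71 times the saline mean, at 102 to 659 reads per library (log2 fold change 1.20, SE 0.370, unadjusted p = 0.00641, adjusted p = 0.179, limma). The exact permutation test gave p = 0.0238.

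The group III genes Grm8 and Grm4 had higher means after cocaine, by a similar size. Grm8 ran from 1.90 through 2.75 to 4.28 RPKM after saline (2.83 ± 0.810, SD, n = 6) and from 3.17 through 3.78 to 5.62 after cocaine (4.06 ± 0.913, n = 6). Libraries 3 and 6 of cocaine were above all saline libraries and the rest overlapped with saline library 6, the highest of its group. The log2 fold change of Grm8 was 0.52 (SE 0.181, unadjusted p = 0.0129, adjusted p = 0.218, limma), with an exact permutation p of 0.0281. Grm4 ran from 2.19 through 2.71 to 4.43 RPKM after saline (2.88 ± 0.805) and from 3.00 through 4.06 to 5.76 after cocaine (4.09 ± 0.999). The saline libraries other than library 4 lay below all cocaine libraries, and library 4 lay among them. The log2 fold change of Grm4 was 0.50 (SE 0.181, unadjusted p = 0.0164, adjusted p = 0.229, limma), with an exact permutation p of 0.0303.

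Grm7 and Grm5 were not shown to differ here. Grm7 ran from 8.20 through 9.28 to 10.1 RPKM after saline and from 8.06 through 10.9 to 12.3 after cocaine, a log2 fold change of 0.19 (SE 0.0989, adjusted p = 0.373, limma). Its cocaine libraries held both the lowest value and the highest. Grm5 ran from 9.31 through 12.9 to 14.0 RPKM after saline and from 8.27 through 12.0 to 15.4 after cocaine. Its log2 fold change was -0.052 (SE 0.151, adjusted p = 0.919, limma), and it was positive without cocaine library 6 (0.048) or cocaine library 3 (0.0043).

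Markers of other cells moved with these groups, and their values stand here beside the receptor levels. The 6 cortical excitatory neuron genes summed to 26.2 to 71.2 RPKM (median 39.0) in saline and 34.6 to 117 (median 50.9) in cocaine VTA libraries at 1 day, against 508 to 809 over all PFC libraries. Among them Slc17a7, the vesicular glutamate transporter of cortical neurons, ran from 1.18 through 2.33 to 27.7 RPKM after saline and from 2.75 through 16.8 to 70.5 after cocaine, while Tbr1 and Emx1 were at or under 0.297 RPKM in all 12 libraries. All 5 midbrain dopamine neuron genes tested were lower after cocaine, 4 of them at an unadjusted p under 0.05, with sums of 660 to 1683 RPKM in saline and 421 to 1023 in cocaine libraries. All 5 microglia genes were lower, 4 of them at an unadjusted p under 0.05, and of the 6 astrocyte genes 2 were higher and 4 lower, at a median log2 fold change of -0.063. All 5 oligodendrocyte genes were lower and all 3 endothelial genes higher, none at an unadjusted p under 0.05. The 2 choroid plexus genes tested were higher, and the list summed to 0.512 to 2.84 RPKM in saline and 0.706 to 35.7 in cocaine libraries. Of the 5 GABA neuron genes 1 was higher and 4 lower. Of the 7 medium spiny neuron genes 5 were higher and 2 lower, and of the 2 subcortical glutamate neuron genes 1 was higher and 1 lower. None of these markers was called.

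With the cortical markers as a covariate, the log2 fold changes at 1 day became 0.58 for Grm2 (unadjusted p = 0.193), 0.20 for Grm8 (0.344), 0.53 for Grm4, -0.42 for Grm3 (adjusted p = 0.313) and 0.29 for Grm5. With the dopamine markers as a covariate they were 0.87 for Grm2, 0.23 for Grm8, 0.15 for Grm4, -0.39 for Grm3 (adjusted p = 0.131) and 0.042 for Grm5. Without the 3 libraries highest in cortical markers, cocaine 3 and 6 and saline 6, they were 0.94, 0.47, 0.28, -0.27 and 0.067 in the same order. In each of these fits Grm3 was lower and Grm2, Grm8 and Grm4 higher, with values from 0.15 to 0.53 for Grm4. With the dopamine covariate the unadjusted p (limma) was 0.0807 for Grm2, 0.245 for Grm8 and 0.381 for Grm4. Without the 3 libraries it was 0.0216, 0.00533 and 0.160, and for Grm4 with the cortical covariate 0.0498. Grm7 had 0.27 with the cortical covariate (unadjusted p = 0.0546, limma) and 0.098 with the dopamine covariate (0.429). Without the 3 libraries Grm7 had 0.20 (unadjusted p = 0.0265, adjusted p = 0.325, limma). Only Grm3 had an unadjusted p under 0.05 in every one of these fits. What part the makeup of the punches has in the receptor values was not tested beyond these fits.

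**Figure D2:**
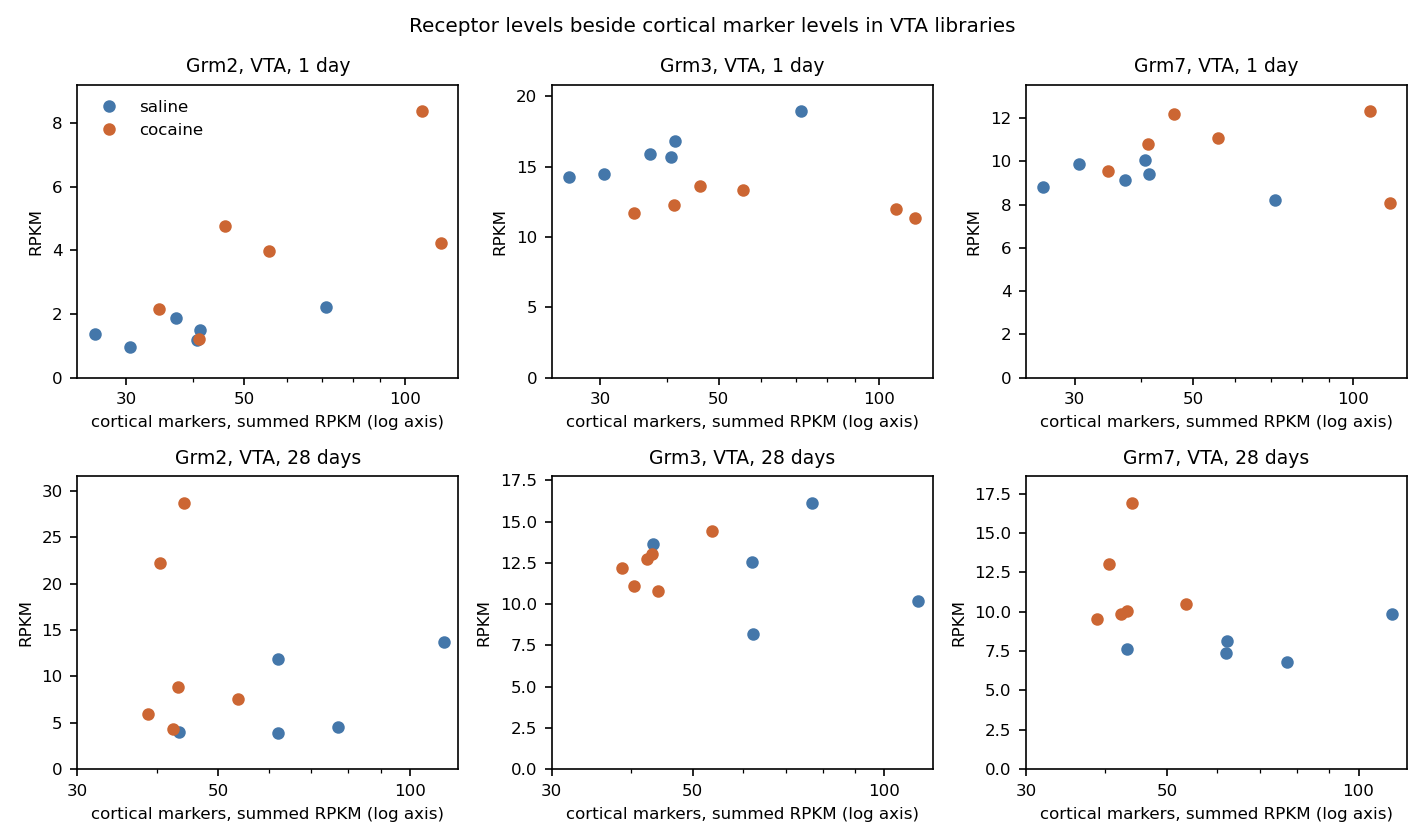
RPKM of Grm2, Grm3 and Grm7 in single VTA libraries (y axis) against the summed RPKM of the cortical excitatory neuron markers in the same library (x axis, log scale), at 1 and 28 days, with saline and cocaine libraries in different colours. At 1 day the cocaine libraries reach marker sums of 117 RPKM and the saline libraries 71.2, and for Grm3 all cocaine libraries (11.3 to 13.6 RPKM) lie below all saline libraries (14.2 to 18.9 RPKM) over the shared range of sums.

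In the VTA at 28 days, 0 of 6 members were called by edgeR, as were 0.0% of the 16937 genes tested, and DESeq2 called 0 members and 74 genes. At an unadjusted p under 0.05 there were 2, Grm7 and Grm5, both higher after cocaine, against 11.5% of all genes. For 0 of 6 members were the groups free of overlap, against 1.33% of all genes. The median log2 fold change of the members was 0.32, with a range of 0.019 to 0.76, and that of all genes -0.030.

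Grm7 was the member with the smallest p in this table. Against the 5 saline libraries at 6.81 to 9.87 RPKM (7.96 ± 1.17, SD, n = 5), the cocaine libraries ran from 9.56 through 10.3 to 16.9 RPKM (11.7 ± 2.88, n = 6). Cocaine libraries 2, 3, 4 and 6 were above every saline library, and libraries 1 and 5 lay just under saline library 4. The cocaine mean was 1.46 times the saline mean (log2 fold change 0.54, SE 0.149, unadjusted p = 0.00344, adjusted p = 0.389, edgeR), the exact permutation p was 0.0108, and DESeq2 gave an adjusted p of 0.0883. Leaving out single libraries gave log2 fold changes of 0.42 to 0.63.

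Grm5, the Gq-coupled receptor gene, ran from 10.2 through 11.0 to 12.4 RPKM after cocaine (11.2 ± 0.994, SD, n = 6), against 6.84 to 10.73 after saline (9.01 ± 1.48, n = 5). Only saline library 3 reached into the cocaine range. The log2 fold change was 0.30 (SE 0.105, unadjusted p = 0.0133, adjusted p = 0.394, edgeR) and the exact permutation p 0.0152. Grm2 ran from 4.36 through 8.23 to 28.7 RPKM after cocaine, with libraries 2 and 6 at 28.7 and 22.2 above every saline library. Neither group was tight for Grm2, and its log2 fold change of 0.76 had an SE of 0.534 (adjusted p = 0.542, edgeR). Cocaine libraries 2 and 6 were also the highest of their group in Grm4 (12.1 and 11.2 RPKM) and Grm7 (16.9 and 13.1 RPKM).

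The remaining members of the VTA at 28 days differed by less than their spread. Grm4 had a log2 fold change of 0.34 (SE 0.255, adjusted p = 0.565, edgeR), Grm3 one of 0.019 (SE 0.154) and Grm8 one of 0.034 (SE 0.165). The Grm3 cocaine libraries ran from 10.8 to 14.4 RPKM, inside the saline range of 8.17 to 16.1, and those of Grm8 from 2.56 to 3.77, with saline library 4 above them at 4.64. The cortical markers summed to 43.3 to 113 RPKM (median 62.1) in saline and 38.8 to 53.6 (median 42.8) in cocaine libraries. Among them Slc17a7 ran from 1.40 to 74.8 RPKM after saline and from 1.09 to 15.9 after cocaine. Of the 5 cortical genes tested 2 were higher and 3 lower after cocaine, while at 1 day all 3 tested were higher. The dopamine neuron genes summed to 444 to 2020 RPKM in saline and 629 to 1865 in cocaine libraries. The 2 subcortical glutamate neuron genes were both higher beside Grm7 and Grm5, with sums of 26.2 to 69.8 RPKM (median 32.1) in saline and 45.5 to 94.2 (median 65.6) in cocaine libraries. Of them Slc17a6 had a log2 fold change of 0.74 (SE 0.264, unadjusted p = 0.0156, edgeR) and its highest level, 91.9 RPKM, in cocaine library 2, the library that was also highest in Grm7. The order was not shared throughout. Slc17a6 stood at 61.9 RPKM in cocaine library 6, where Grm7 was 13.1, and at 66.9 in saline library 1, where Grm7 was 8.11. All 5 oligodendrocyte, all 5 microglia and all 3 endothelial genes were lower, at median log2 fold changes of -0.43, -0.31 and -0.49, and none of these markers was called. With the cortical markers as a covariate the log2 fold changes at 28 days were 0.48 for Grm7 (unadjusted p = 0.0467), 0.42 for Grm5 (0.0136), 0.42 for Grm8 (0.0344) and 0.26 for Grm3 (0.223). With the dopamine markers they were 0.57 for Grm7, 0.31 for Grm5, 0.11 for Grm8 and 0.021 for Grm3. The part of the other markers in the result was not tested.

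The NAc gave small differences throughout. At 1 day 0 of 6 members were called, against 0.0126% of 15878 genes, the members' log2 fold changes ran from -0.23 for Grm2 to 0.057 for Grm7, and their smallest unadjusted p was 0.331 (edgeR). DESeq2 called 0 members too. Grm5 had 41.8 through 53.5 to 63.4 RPKM after cocaine and 47.6 through 52.9 to 63.9 after saline, a log2 fold change of -0.0020 with an SE of 0.108. At 28 days 0 of 6 were called, as were 0.0% of 16295 genes, with log2 fold changes from -0.031 for Grm4 to 0.091 for Grm7 and a smallest unadjusted p of 0.455. The NAc groups overlapped for all 6 members on both days. Standard errors were 0.0705 to 0.119 for Grm3, Grm4, Grm5 and Grm7 at 28 days, and 0.303 and 0.260 for Grm2 and Grm8, the members with fewest reads there.

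The PFC showed the same. At 1 day 0 of 6 members were called, against 0.00693% of 14427 genes (limma). All 6 log2 fold changes were negative, from -0.14 for Grm4 to -0.010 for Grm8, with a smallest unadjusted p of 0.279 for Grm7, whose groups held 14.3 to 17.0 RPKM after cocaine and 15.5 to 17.2 after saline. At 28 days 0 of 6 were called, as were 0.0% of 16340 genes, and the smallest unadjusted p was 0.126, for Grm4 at a log2 fold change of -0.41 (SE 0.251, edgeR). That value rested on saline PFC library 4, and without it the log2 fold change of Grm4 was 0.0035 (SE 0.0654). Grm2, the member with the steepest cortical excess, ran from 18.8 through 22.1 to 25.5 RPKM after cocaine and from 14.8 through 21.4 to 23.7 after saline in the PFC at 28 days (log2 fold change 0.12, SE 0.109, adjusted p = 0.892, edgeR).

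**Figure D3:**
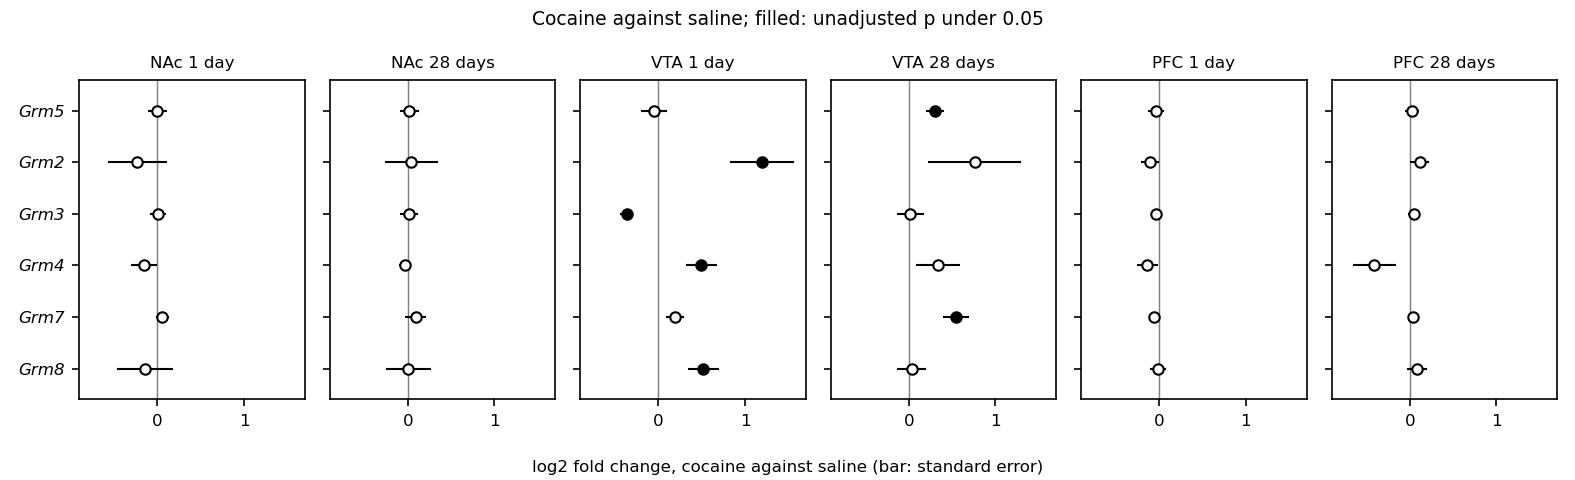
Log2 fold change of cocaine against saline (x axis, with bars of 1 SE) for each of the 6 receptors in each region and time point, with filled points where the unadjusted p is under 0.05. Filled points occur in the VTA panels alone, for Grm3 (-0.36), Grm2 (1.20), Grm8 (0.52) and Grm4 (0.50) at 1 day and for Grm7 (0.54) and Grm5 (0.30) at 28 days, and none of the 36 values plotted passed adjustment over all genes.

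Whether the cocaine difference itself differed between the time points was tested as an interaction in each region. In the VTA 0 of 6 members were called, as were 0.0% of the 15149 genes tested. The 1 member at an unadjusted p under 0.05 was Grm3, whose log2 fold change was 0.42 higher at 28 days than at 1 day (SE 0.170, unadjusted p = 0.0206, adjusted p = 0.325, limma). For Grm7, higher at 28 days, the interaction was 0.33 (SE 0.183, adjusted p = 0.426), and for Grm2 it was -0.56 (SE 0.667), so neither was shown to depend on the day. In the NAc 0 members were called, against 0.0181% of all genes, and in the PFC 0, against 0.0137%, with smallest unadjusted p-values of 0.456 and 0.163. A difference of the cocaine comparison between the 3 regions at 28 days was called for 0 of 6 members, against 0.0339% of 17679 genes, and Grm7 came nearest (unadjusted p = 0.00872, adjusted p = 0.363, edgeR). These comparisons share their libraries with those above.

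A further 55 genes of the receptors' pathway were read in the same fits. They comprise the glutamate transporters and enzymes of the ligand side, the Gq and Gi/o signalling genes, the scaffolds of mGlu5, the RGS proteins, kinases and arrestins that limit signalling, and partners of the group III receptors. In saline tissue at 28 days, 43 of 55 were called between NAc and VTA, 26 higher in the NAc and 17 lower, against 62.5% of all genes, of which 5123 were higher and 5609 lower. Between VTA and PFC 46 of 55 were called, 12 higher and 34 lower in the VTA, against 57.8% of all genes, with 5115 higher and 4824 lower. Between NAc and PFC 30 of 55 were called, 9 higher and 21 lower in the NAc, against 40.7% of all genes, and the median log2 fold change was -0.075, beside 0.32 for the members and 0.019 for all genes. Of the 18 genes on the Gq side, 14 were lower and 3 higher in the VTA than in the PFC, and Grm5 was lower. Against the VTA, 11 were higher and 4 lower in the NAc, where Grm5 was higher. Against the PFC, 3 were higher and 7 lower in the NAc, while Grm5 was higher there. The pathway counts against the PFC include saline PFC library 4. Homer1, the scaffold that ties mGlu5 to its calcium stores, averaged 25.9 ± 5.19 RPKM in the NAc, 3.69 ± 0.592 in the VTA and 20.03 ± 2.72 in the PFC (SD, n = 6, 5 and 6), a log2 fold change of NAc over VTA of 2.92 (SE 0.164).

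On the Gi/o side, which groups II and III use, 7 of 11 genes were lower in the VTA than in the PFC and 2 higher. Adcy5, the main adenylyl cyclase of medium spiny neurons, averaged 249 ± 38.2 RPKM in the NAc and 29.9 ± 2.49 in the VTA (log2 fold change 3.17, SE 0.381). Adcy1 was higher in the PFC than in the NAc (log2 fold change of NAc over PFC -2.14, SE 0.174). On the ligand side the vesicular glutamate transporters had opposite orders, with Slc17a6 at 37.9 ± 17.8 RPKM in the VTA and 1.37 ± 0.595 in the NAc, and Slc17a7 at 552 ± 86.1 in the PFC. Among the partners of group III, Elfn2, which binds these receptors across the synapse, was called in all 3 region comparisons and was lowest in the VTA (16.7 ± 1.94 RPKM).

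After cocaine, edgeR on counts and limma on RPKM called 0 of the pathway genes in any of the 6 comparisons. At an unadjusted p under 0.05 there were 0 in the NAc and 0 in the PFC at 1 day, 3 and 2 at 28 days, 11 of 54 in the VTA at 1 day (8 higher, 3 lower) and 12 of 55 in the VTA at 28 days (11 higher, 1 lower). Over all genes this was so for 15.7% and 11.5% in the VTA. In the NAc it was so for 636 of 15878 genes at 1 day and 1102 of 16295 at 28 days. In the PFC it was so for 546 of 14427 and 925 of 16340. At 1 day the smallest p was that of Itpr1, the IP3 receptor downstream of mGlu5, which was higher by 0.47 on the log2 scale (SE 0.0946, adjusted p = 0.0766, limma). Rgs4, a brake on Gq and Gi/o signalling, was higher by 0.76 (SE 0.224, adjusted p = 0.158). On the lower side stood Adrbk2, a receptor kinase, at -0.24 (SE 0.0699, adjusted p = 0.156) and Elfn1, a postsynaptic partner of mGlu7, at -0.56 (SE 0.193, adjusted p = 0.215).

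At 28 days in the VTA the genes with the smallest p were Adcy3, an adenylyl cyclase, at a log2 fold change of 0.30 (SE 0.0802, adjusted p = 0.389, edgeR) and Elfn2 at 0.29 (SE 0.0858, adjusted p = 0.389). On the lower side Slc17a7 stood at -2.89 (SE 0.906, adjusted p = 0.390), after 2.11 at 1 day (SE 0.906, adjusted p = 0.287, limma), and Homer3 at -0.33 (SE 0.155, adjusted p = 0.435). The Shank scaffolds of mGlu5 had log2 fold changes of 0.24 for Shank1, 0.21 for Shank2 and 0.30 for Shank3, each at an unadjusted p under 0.05, and Grm5 itself had 0.30. The Homer scaffolds did not share this, with -0.0087 for Homer1 (unadjusted p = 0.938, edgeR), 0.14 for Homer2 (0.470) and the lower Homer3. The median over the pathway genes was 0.042 at 1 day and 0.095 at 28 days, beside 0.030 and -0.030 over all genes.

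In the NAc at 28 days the smallest p-values among the pathway genes were those of Gnai1, a Gi subunit, at a log2 fold change of 0.20 (SE 0.0581) and Rimklb, which makes the peptide ligand NAAG, at 0.21 (SE 0.0849), and on the lower side Shank3 at -0.23 (SE 0.0935) and the glutamate transporter Slc1a1 at -0.13 (SE 0.0602). At 1 day they were Slc1a3 and Rgs2 (0.087 and 0.15) and Slc17a8 and Grip1 (-0.17 and -0.069). Their adjusted p-values ran from 0.592 upward (edgeR). In the PFC at 28 days they included Shank2 at 0.15 (SE 0.0448), with Slc17a8 at -0.46 (SE 0.226) and Rgs14 at -0.26 (SE 0.134) on the lower side. At 1 day they were Rgs4 and Homer1 (0.14 and 0.18) and the cystine-glutamate exchanger Slc7a11 and Elfn1 (-0.32 and -0.21). Here the adjusted p-values ran from 0.842 upward (edgeR at 28 days, limma at 1 day).

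Finally, the genes whose log2 levels ran most like those of each member were sought over the 35 libraries at 28 days, among 14654 genes with a mean of at least 1 CPM (counts scaled to the size of the library). Those libraries share region, depth and treatment, so the correlations are descriptions. For Grm4 the nearest was Penk (Pearson's r = 0.968), the enkephalin precursor of indirect-pathway medium spiny neurons, followed by Necab2 (0.967) and the potassium channel gene Kcna5 (0.965). Grm5 ran with Fam65b (0.991) and Akap5 (0.989), a postsynaptic anchor of protein kinase A, and Fam120a (0.988). Grm3 ran with Mast3 (0.970), Fnip1 (0.969) and Tnks2 (0.966). Grm2 ran with Gpr162 (0.951), 6430548M08Rik (0.947) and Mapk11 (0.946), and Grm7 with Armc9 (0.937), Fgf14 (0.935) and Zik1 (0.929). Grm8 ran with Car10 and Ptprk (0.974 each) and Fhod3 (0.972). Between members, Grm2 and Grm8 correlated at 0.938 and Grm5 and Grm3 at 0.925, while Grm4 and Grm8 had r = -0.881.

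With the group means subtracted, so that only the spread between libraries of a group remained, other genes came first. Grm3 was then nearest to Gpm6b (r = 0.931), a membrane glycoprotein of neurons and glia, and to Secisbp2l (0.926) and Nipa1 (0.879). Grm2 was nearest to Kcnj9 (0.890), a G protein-gated potassium channel subunit, Cnih3 (0.881) and Nog (0.873), and Grm4 to Pde1b (0.883), a phosphodiesterase of medium spiny neurons, Lingo3 (0.863) and Rem2 (0.840). The values of Grm4 rested on saline PFC library 4, without which they were 0.791, 0.720 and 0.683 over 34 libraries and 0 of these genes were among its 3 nearest. The genes most like Grm5 included Sesn3 (0.886) and Aff4 (0.851), and those most like Grm7 included Fgf14 (0.842) and Celf1 (0.840). Grm8 was nearest to Olfm1 (0.825), Kcnj3 (0.813) and Efr3a (0.812). Without saline PFC library 4 the values of these genes of the other members lay between 0.798 and 0.932, and the order of their nearest genes changed in part.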

How the data were processed

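RNA-seq reads were aligned by the authors with STAR 2.4.1d to the mouse genome mm9 with the Ensembl annotation. The authors deposited raw read counts per gene for the NAc at 1 and 28 days and for the VTA and PFC at 28 days, and RPKM values for the VTA and PFC at 1 day. The tables also hold the authors' own fold changes and p-values, which were not used, and 30 columns of values that belong to no sample analysed here. Gene positions in the tables carry a flank, of 250 bases in the 1-day tables, and the mm9 gene positions without it are given. The columns at 28 days name a group but no labelled sample, so the numbers of those libraries are names only.

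Counts were tested with edgeR 4.0.16 in R 4.3.3 (filterByExpr at minimum counts of 10 per library and 15 in total, TMM, quasi-likelihood test), within a table for cocaine and over the 28-day tables for regions. RPKM was tested with limma 3.58.1 on log2(RPKM + 0.1), a scale that understates changes of low genes, where genes needed a mean of 0.5 or more. Whole reads were recovered from RPKM for 24779 of 24779 genes (100%, tolerance 0.001 of a read) and used for depths, counts per gene and an alternative. RPKM of the count tables was computed here with the gene lengths recovered from the RPKM tables. Single members were also compared by two-sided exact permutation tests of mean log2 levels, with 36 tests for cocaine and 36 for regions, unadjusted, over 924 divisions of 12 libraries or 462 of 11. Standard errors of edgeR's fold changes were computed from its F statistic. The interaction with time used edgeR in the NAc and limma in the VTA and PFC, and that with region used edgeR over the 28-day libraries. Scripts were tested on simulated data.

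The members, the 55 pathway genes and the marker lists were chosen with earlier results of these data known. The genes named are the members, the pathway genes called or, where none was, the 2 with the smallest p in each direction, and the 3 genes most alike to each member, of which some are not reported here. Of the pathway genes called between regions only examples are given, which, like the Shank genes in the VTA, were picked after their values were seen. Alternatives were DESeq2 1.42.0, its size factors, no filter, a pseudocount of 1, edgeR on recovered reads, an adjusted p under 0.25, a log2 fold change of at least 1, a cortical marker covariate, the replicate number as a block and each library left out in turn. A dopamine marker covariate, leaving out 3 libraries and leaving saline PFC library 4 out of levels and correlations were chosen after seeing the data. Replicate numbers at 1 day were not used as pairs in the main tests. The deviations of same-numbered libraries correlated at -0.58 to 0.668 in the NAc, -0.31 to 0.491 in the VTA and -0.192 to 0.123 in the PFC. The medians of the other pairs were -0.0947, -0.00647 and 0.0045. These mixed values do not settle whether same-numbered libraries belong together. Python 3.11.15 with pandas 2.3.3 and numpy 2.4.6 was used for tables and figures.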

Additional observations from a re-analysis of the deposited data

Results flagged for a closer look

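Within groups of 5 or 6 libraries, the highest or lowest level of a member stood far from the others in 5 of 72 pairs of a member and a group, where chance gives about 1 in 20. In saline PFC at 28 days, library 4 was the highest in Grm4, at 14.19 RPKM against 4.367 to 5.303, and the lowest in Grm8, at 3.638 against 5.87 to 6.951. It is the library with 1291 RPKM of medium spiny neuron genes. In the same group library 1 was lowest in Grm7, at 10.88 RPKM against 12.28 to 12.79. In cocaine NAc at 1 day library 6 was lowest in Grm7, at 18.58 RPKM against 24.07 to 25.97. In saline VTA at 28 days library 4 was highest in Grm8, at 4.64 RPKM against 2.488 to 2.803, and it was also highest there in Slc17a7, at 74.8 RPKM.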

How the results depend on the processing

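The count of members called stayed within 1.5 times its value in all but 4 of the settings tried. In the VTA at 1 day it went from 0 to 1 with edgeR on recovered reads and to 4 at an adjusted p under 0.25, and at a log2 fold change of at least 1 it went from 5 to 3 for NAc against PFC at 28 days and from 6 to 3 for VTA against PFC at 1 day. Pathway genes called in the VTA at 1 day went from 0 to 6 at an adjusted p under 0.25, to 2 with the replicate block (Itpr1 and Slc17a7) and to 0 to 1 with 1 library left out in turn, the 1 being Itpr1 without saline library 3 (adjusted p = 0.0404, limma).

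With the replicate number as a block, the members called were 0 in the NAc, VTA and PFC at 1 day and 6 for VTA against PFC at 1 day, and over all genes of the VTA the count went from 10 to 60. No paired analysis was possible at 28 days because the columns carry no label number. Over all genes, DESeq2 called 21 in the NAc at 1 day against 2 and 14 at 28 days against 0, 74 in the VTA and 2 in the PFC at 28 days against 0, and 10 for the NAc interaction against 3. In the VTA at 1 day edgeR on recovered reads called 55, the cortical covariate 0, no filter 7 and the dopamine covariate 15, against 10.

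Among the values followed under every alternative, those of the VTA and between regions, directions turned for the following. Grm5 in the VTA at 1 day was 0.29 with the cortical covariate, 0.042 with the dopamine covariate, 0.067 without 3 libraries and -0.13 to 0.048 with 1 left out, against -0.052. With 1 library left out, Grm3 in the VTA at 28 days ran from -0.085 to 0.15 and Grm8 from -0.028 to 0.23, the Grm4 interaction with time in the VTA from -0.23 to 0.10, and Grm4 in VTA against PFC at 28 days from -0.27 to 0.38. In the PFC at 28 days, Grm4 went from -0.41 to 0.0035 and Grm8 from 0.089 to -0.011 without saline library 4. The cause was not tested. The smallest unadjusted p of a member in the NAc at 1 day was 0.0440 without saline library 4, against 0.331. Of the single values, 727 with a library left out and 175 under other settings kept direction and side of the threshold. Grm2 had 27 to 354 reads per library in the NAc, with an SE of 0.303 to 0.343 for cocaine against saline there and its largest, 0.534, in the VTA at 28 days.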
